A study of Mus musculus with 15 samples.

Results

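Hearts of mice given activated protein C (aPC) before myocardial ischaemia and reperfusion were set against hearts of sham mice. The members are the 5 libraries of these groups, 2 aPC (aPC-791 and aPC-792) and 3 sham (Sham_003, Sham_006 and Sham_007), among 11 in the deposited table, chosen by their treatment labels. All mice were male wild-type C57BL/6 of 8 to 10 weeks, and RNA came from heart tissue that held the infarct and its surroundings. The aPC mice received 1 mg/kg aPC 30 min before surgery, in which the left anterior descending coronary artery was tied for 90 min and reperfused for 24 h, with drug dosing taken up again 2 h after surgery. The sham mice carry that treatment label alone, and what the sham operation included is not stated in the labels. If sham hearts had no tied artery, which the group name alone points to, an effect of aPC and an effect of the infarct cannot be told apart here. The other groups, called untreated, rivaroxaban (a factor Xa inhibitor, 3 mg/kg for 7 days) and dabigatran (a thrombin inhibitor, 10 mg/kg for 7 days), had 2 libraries each, entered the same fit and are called the other operated groups below, although the labels describe the surgery once for all mice. Nothing states that libraries of a group came from separate surgery days or cages, so p-values measure the spread between these samples.

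Protein C is a plasma protease precursor. Thrombin bound to thrombomodulin on endothelium cuts it, helped by the endothelial protein C receptor, and activated protein C then inactivates coagulation factors V and VIII. It also signals through the thrombin receptors of the protease-activated family on endothelium and other cells, and is known for limiting inflammation and cell death in injured tissue.

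All values are log2 CPM, the reads of a gene relative to the size of its library on a log2 scale, normalized by the authors with the trimmed mean of M values. Libraries held between 26629925 and 28254641 reads on listed genes in aPC hearts and between 29122886 and 32771278 in sham hearts. The SD of the log2 difference between replicates over the tested genes was 0.397 for the aPC pair and between 0.313 and 0.367 for pairs of sham libraries. Heart muscle genes marked both groups: sarcomere and calcium handling genes summed to between 106000 and 109000 CPM in aPC hearts and between 91400 and 113000 CPM in sham hearts.

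Of 13541 tested genes, 159 differed between aPC and sham hearts, or 1.17%, and these were mostly lower in aPC hearts. By two-sided limma-trend with a Benjamini-Hochberg adjusted p under 0.05, 17 genes rose (0.126%) and 142 fell (1.05%). Genes of the heart's covering mesothelium led the rises. Genes of vascular smooth muscle and of RNA processing were among the falls. The libraries of the groups did not overlap for any of the 159 genes. Of all tested genes, 24.0% had both aPC libraries above all sham libraries and 23.3% had both below. At an unadjusted p under 0.05 by limma there were 905 higher and 1402 lower genes. The count rests on every aPC and sham library: it was 1 and 5 without aPC-791 and aPC-792, and 19, 22 and 10 without Sham_003, Sham_006 and Sham_007. It also moved with libraries outside the pair through the shared estimate of spread, to 779 and 776 without untreated replicates 17 and 19, and to 42 when either rivaroxaban library (Riva-313 or Riva-319) was left out.

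The aPC libraries also differed from the sham libraries in technical features. Reads on Gm42418, a predicted gene whose span includes sequence of ribosomal RNA, made up 6.78% and 6.73% of the aPC libraries, against between 1.57% and 1.77% of the sham libraries. Taking its reads out of the library totals lowered the median fold change of all tested genes to -0.10, against 0.03 with them. Fold changes also followed gene length: their median was 0.21 in the decile of genes with the shortest exons and -0.10 in the decile with the longest. Across the 13541 genes, which are not independent replicates, the Spearman correlation of the fold change with exon length was -0.25 and with GC content -0.21. The 142 genes that fell had a median exon length of 6836 bases and the 17 that rose one of 2192 bases, against 4415 bases for all tested genes. After a curve on exon length was subtracted from each library, 121 of the 142 falls and 12 of the 17 rises still passed, and 71 and 9 did so when a curve on GC content was subtracted as well. What produced the length trend was not tested.

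**Figure D1:**
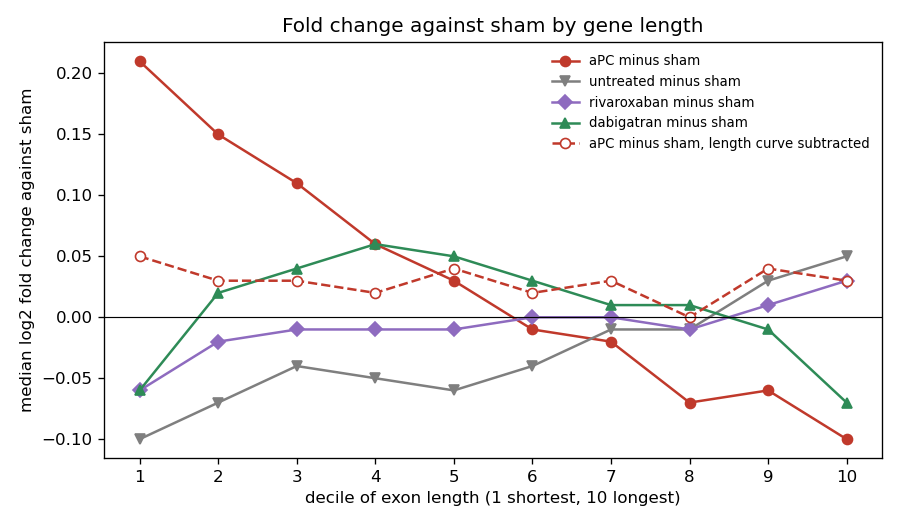
Median log2 fold change against sham (vertical axis) in deciles of genes ordered by exon length (horizontal axis), for the aPC, untreated, rivaroxaban and dabigatran groups and for aPC after the length curve was subtracted. The aPC line runs from 0.21 in the shortest decile to -0.10 in the longest, while the subtracted line stays between 0.00 and 0.05.

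Epicardial and mesothelial markers, genes of the cell layer that covers the heart and lines the chest cavity, held the largest rises. Of 6 tested members 2 rose and 0 fell, against 0.126% and 1.05% of all tested genes. The list median was 3.72 (3.58 with the length curve subtracted) against 0.03 for all tested genes. Over all alternatives the list median ran from -0.36 to 4.58. Nothing is read from setting this count and median beside all tested genes. Both called members, Krt8 and Krt19, passed the filter only with the aPC libraries. They reached 0 in those and in Dabi-204, at 0.94 and 0.76. Krt8, a keratin of simple epithelia, stood at 4.36 and 2.35 in the aPC libraries, against -1.15, -1.86 and -1.55 in the sham libraries. The aPC libraries lay far above all sham libraries and also apart from each other. These levels came from 500 and 123 reads in aPC hearts, against 13, 7 and 8 reads in sham hearts, and the log2 fold change was 4.87 ± 0.78 (limma standard error, adjusted p = 0.0221). Krt19, another such keratin, stood at 4.07 and 2.27 in aPC hearts, against -1.73, -1.45 and -1.06 in sham hearts. Its change was 4.58 ± 0.90 (limma, adjusted p = 0.0397), and 4.45 with an adjusted p of 0.0544 after the length curve was subtracted.

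The other tested markers did not pass. Krt18, the keratin that pairs with Krt8 in filaments, stood at 3.36 and 1.72 in aPC hearts, against -0.11, 0.57 and -1.41 in sham hearts, a difference of 2.86 ± 0.60 (limma, adjusted p = 0.0544). Msln, encoding the mesothelial surface protein mesothelin, had 491 and 126 reads in aPC hearts, against 4, 11 and 4 in sham hearts, with a difference of 5.38 ± 1.43 (limma, adjusted p = 0.108). In both genes the aPC libraries lay above every sham library. Gpm6a differed by 1.24 ± 0.28 (limma, adjusted p = 0.0709). Wt1, a transcription factor of the epicardium that also marks other cells of the injured heart, stood at 3.35 and 2.52 in aPC hearts, against 3.29, 2.82 and 3.76 in sham hearts. Its libraries overlapped, and the difference was -0.36 ± 0.30 (limma, adjusted p = 0.589).

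The other 3 markers in the table were too low outside the aPC libraries to enter the test, which asks for a value of at least 0 in 3 libraries. Upk3b, a uroplakin of mesothelium, had 221 and 94 reads in aPC hearts, against 2, 7 and 4 in sham hearts. Upk1b, a related membrane protein, had 243 and 76 reads, against 0, 3 and 1 in sham hearts. Lrrn4 had 72 and 42 reads, against 4, 0 and 0 in sham hearts. All 3 were thus near the limit of detection in sham hearts and clearly counted in both aPC hearts. Since a gene seen in the aPC libraries alone cannot pass the filter, the 6 tested markers are not the whole list of 9 in the table.

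**Figure D2:**
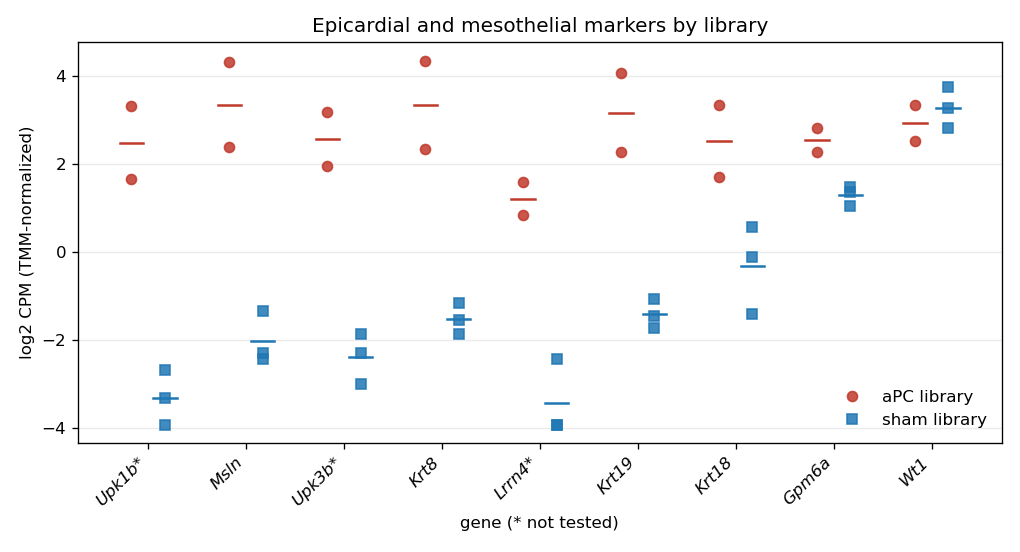
Log2 CPM (vertical axis) of the 9 epicardial and mesothelial markers in the table, 1 point per library, with aPC libraries left of sham libraries and a bar at each group mean; an asterisk marks genes left out of the test. In 8 of 9 genes both aPC libraries lie above all sham libraries, and Wt1 is the exception. Among the 6 tested genes the count is 5, against 24.0% of all tested genes. Krt8 and Krt19 entered the test only with the aPC libraries, so nothing is read from that share.

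The height of the mesothelial signal differed between the aPC hearts. The summed level of the 9 markers was 37.4 CPM in aPC-792 and 106 CPM in aPC-791, against between 11.6 and 17.5 CPM in the sham libraries, with aPC-791 the higher of the pair for every marker. In the other operated groups the sum was 29.7 to 36.2 CPM in untreated, 12.5 to 13.5 CPM in rivaroxaban and 13.1 to 20.5 CPM in dabigatran hearts. In bulk tissue more cells of a type and more RNA per cell cannot be told apart, and whether the pieces of heart held different amounts of surface tissue was not tested. The call on Krt8 was lost without either aPC library or any 1 sham library, with adjusted p between 0.0717 and 0.254 and a log2 fold change of 3.87 without aPC-791 and 5.88 without aPC-792.

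Krt8 and Krt18 are neighbours on chromosome 15, and their start regions are shown because both genes had their aPC libraries above all sham libraries. The windows run from 250 bases before to 50 bases after the annotated start, from RefSeq on GRCm38.p6. They are chr15:102004293-102004592 on the minus strand for Krt8 and chr15:102027966-102028265 on the plus strand for Krt18, written 5′ to 3′ with matches to the TATA box letters TATAAA on either strand in capitals.
Krt8: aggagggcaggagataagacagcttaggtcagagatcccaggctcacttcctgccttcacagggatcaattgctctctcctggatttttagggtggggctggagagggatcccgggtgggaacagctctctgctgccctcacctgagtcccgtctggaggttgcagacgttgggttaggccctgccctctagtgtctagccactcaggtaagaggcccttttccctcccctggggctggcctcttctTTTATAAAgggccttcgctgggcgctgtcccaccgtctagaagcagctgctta
Krt18: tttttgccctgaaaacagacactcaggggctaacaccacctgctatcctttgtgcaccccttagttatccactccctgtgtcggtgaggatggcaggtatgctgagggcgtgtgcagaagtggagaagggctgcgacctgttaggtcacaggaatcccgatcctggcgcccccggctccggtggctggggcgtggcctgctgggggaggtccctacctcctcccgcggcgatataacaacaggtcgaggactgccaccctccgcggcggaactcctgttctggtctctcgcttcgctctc
The Krt8 window holds TATAAA on both strands, in an overlapping run that straddles the annotated start, and the Krt18 window holds none. Among all 32851 windows of this length 13.6% hold TATAAA on either strand. Neither window holds the GC box GGGCGG, found in 35.7% of all windows, or the AP-1 letters TGANTCA, found in 7.81%.

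Other large rises were in epithelial and low-abundance genes. Dmkn, encoding the epithelial secreted protein dermokine, stood at 2.89 and 1.63 in aPC hearts, against -2.04, -2.02 and -3.32 in sham hearts. Its change was 4.72 ± 0.53 (limma, adjusted p = 0.00558), from 180 and 74 reads against 6, 6 and 1. Nlrp4e, a member of a family of closely related genes whose reads may be shared, stood at 2.33 and 0.96 in aPC hearts and at -2.23, -2.21 and -1.55 in sham hearts, a change of 3.65 ± 0.60 (limma, adjusted p = 0.0234). Sprr2a2, a small proline-rich gene of epithelia with near-identical copies, rose by 2.11 ± 0.41 (limma, adjusted p = 0.0397) and Wdr17 by 2.03 ± 0.35 (limma, adjusted p = 0.0267). In all 4 genes the groups stood apart, and the levels in sham hearts were below 1.

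Rises among well expressed genes were smaller, apart from Gnb1l and Gm42418, which are described below. Tfpi, tissue factor pathway inhibitor and the 1 called member of 17 coagulation and fibrinolysis genes, stood at 6.98 and 6.64 in aPC hearts, against 5.71, 5.96 and 6.08 in sham hearts, a rise of 0.89 ± 0.17 (limma, adjusted p = 0.0361). Tfpi lost the call under voom (adjusted p = 0.0515), without a variance trend (0.0684), with length and GC curves subtracted (0.0687), and without any 1 of the aPC, sham or rivaroxaban libraries (0.075 to 0.381). Ide, the insulin-degrading protease, rose by 0.92 ± 0.16 (limma, adjusted p = 0.0249). Gstm2, a glutathione transferase, rose by 0.76 ± 0.14 (limma, adjusted p = 0.0311). Selenbp2 rose by 0.78 ± 0.14 and Acy3, an aminoacylase, by 0.77 ± 0.15 (limma, adjusted p = 0.0334 and 0.0361), and both lost the call when the length curve was subtracted (0.0691 and 0.0842).

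Gnb1l and the pair of predicted genes on chromosome 17 stood apart in both aPC libraries. Gm42418 stood at 16.26 and 16.16 in aPC hearts, against 13.97, 13.92 and 14.11 in sham hearts, a rise of 2.21 ± 0.31 (limma, adjusted p = 0.0147) that was 1.28 (adjusted p = 0.0948) after quantile normalization. Gnb1l stood at 10.15 and 10.18 in aPC hearts, against 8.15, 7.95 and 8.15 in sham hearts, a rise of 2.08 ± 0.26 (limma, adjusted p = 0.00793). Its level went with that of Gm42418: in each other operated group the library higher in Gm42418 was also higher in Gnb1l. The dabigatran libraries, for example, stood at 14.34 and 13.14 for Gm42418 and at 8.29 and 7.25 for Gnb1l. The aPC libraries, close to each other in both genes, did not share that order, at 16.26 and 16.16 for Gm42418 and 10.15 and 10.18 for Gnb1l. Whether the rise of Gnb1l is separate from that of Gm42418 was not tested. Gm26917, annotated at chr17:39843013-39846341 just before Gm42418 at chr17:39846958-39848788 on the same strand of mm10, went the other way. It stood at 4.76 and 4.66 in aPC hearts, against 6.62, 6.63 and 7.08 in sham hearts, and fell by 2.07 ± 0.16 on the log2 scale (limma, adjusted p = 0.00117). Gm26917 is the single gene that passed without aPC-791. Whether read assignment between these neighbours plays a part was not tested.

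**Figure D3:**
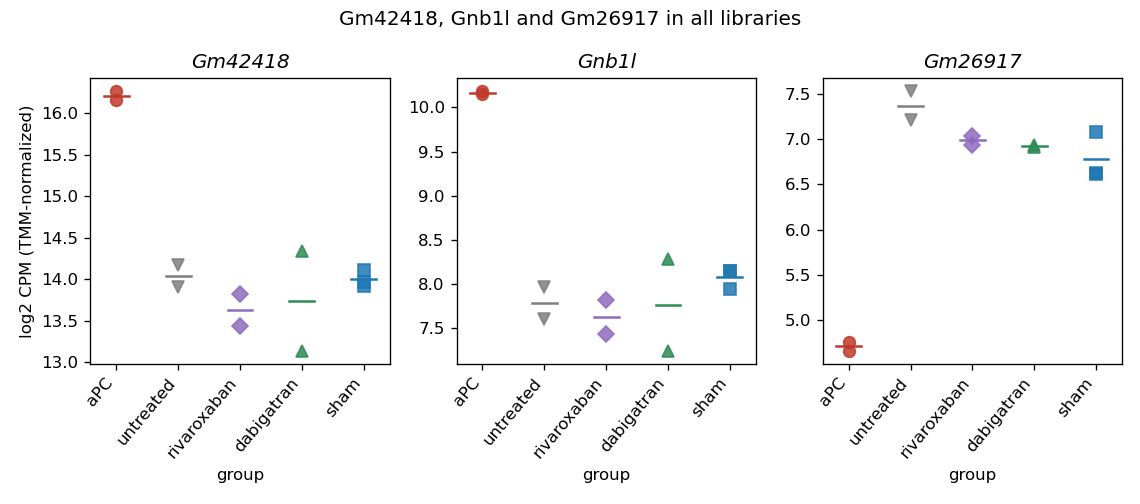
Log2 CPM (vertical axes, separate scales that do not start at 0) of Gm42418, Gnb1l and Gm26917 in all 11 libraries by group, with aPC first and sham last and a bar at each group mean. Both aPC libraries stand apart from the other 9 in each gene, above them for Gm42418 and Gnb1l and below them for Gm26917.

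Smooth muscle and pericyte markers, the genes of the contractile and supporting cells of vessel walls, were the cell type list with the most falls. Of 12 tested members 4 fell and 0 rose, against 1.05% and 0.126% of all tested genes. The list median was -0.91 (-0.80 with the length curve and -0.68 with length and GC curves subtracted). Myh11, the smooth muscle myosin heavy chain, stood at 4.95 and 4.79 in aPC hearts, against 6.41, 6.57 and 6.67 in sham hearts, and fell by 1.68 ± 0.23 on the log2 scale (limma, adjusted p = 0.0134). Notch3, the Notch receptor of mural cells, had 795 and 778 reads in aPC hearts, against 2888, 2493 and 2690 in sham hearts, and fell by 1.38 ± 0.17 (limma, adjusted p = 0.00793). In both genes the gap between groups was several times the spread within them. Cspg4, the pericyte proteoglycan NG2, fell by 0.96 ± 0.15 and Mylk, myosin light chain kinase, by 0.88 ± 0.12 (limma, adjusted p = 0.0198 and 0.0147). All 4 still passed after the length curve was subtracted. Myh11 and Mylk were also lower in untreated than in sham hearts, at -0.94 and -0.57 (limma, adjusted p = 0.0322 and 0.0214). Notch3 and Cspg4 did not pass in untreated hearts, and none of the 4 passed in rivaroxaban or dabigatran hearts.

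The list did not move as a whole. In 8 of its 12 members both aPC libraries lay below all sham libraries, against 23.3% of all tested genes, and in 2 both lay above, against 24.0%. Below and not passing were Acta2, smooth muscle actin, at -0.93 ± 0.38, Tagln at -1.01 ± 0.30, Pdgfrb, a pericyte receptor, at -0.62 ± 0.14 and Cnn1 at -1.39 ± 0.45 (limma, adjusted p between 0.0686 and 0.259). Rgs5, Abcc9 and Kcnj8, genes of pericytes, stood at -0.01, -0.07 and 0.25 on the log2 fold scale, and Des, which heart muscle also makes in quantity, at 0.40. The summed level of the list, set mainly by Des, was between 4830 and 5040 CPM in aPC hearts, against between 4160 and 4870 CPM in sham hearts. Without aPC-791, aPC-792 or Sham_007 no member passed, and without Sham_003 or Sham_006 1 did. Start windows were available for 9 of these members, and Myh11, Tagln and Pdgfrb had none. None of the 9 holds a CArG box, the motif of serum response factor, which 1.63% of all windows hold. At that share 9 windows are too few to read anything from the count.

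**Figure D4:**
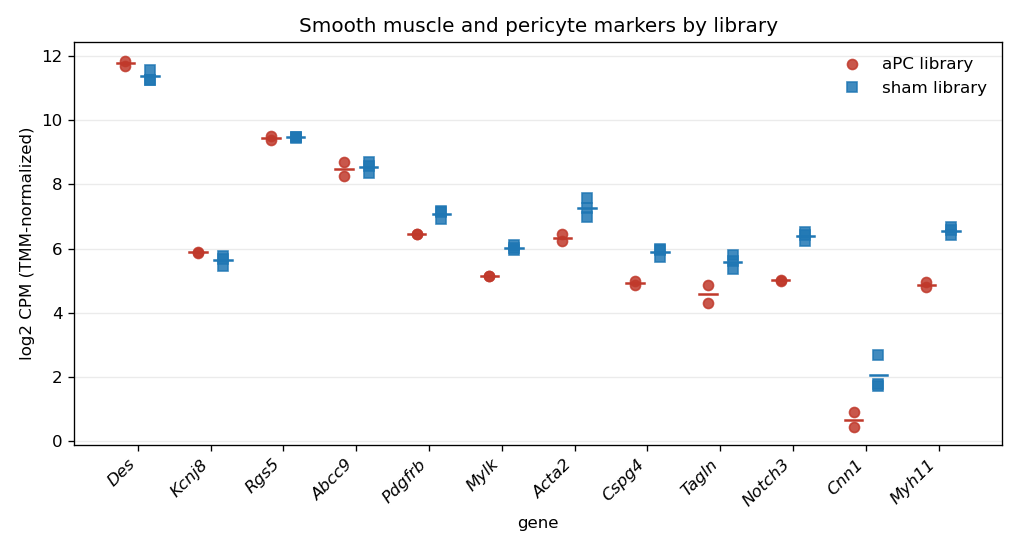
Log2 CPM (vertical axis) of 12 smooth muscle and pericyte markers, 1 point per library, with aPC libraries left of sham libraries and a bar at each group mean, ordered by the difference. From Pdgfrb to Myh11 both aPC libraries lie below all sham libraries.

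Markers of the other cell types of the heart gave few calls. Among 18 endothelial markers 1 fell, Egfl7, an angiogenic secreted protein, at 3.63 and 3.54 in aPC hearts against 4.65, 4.46 and 4.42 in sham hearts, by 0.93 ± 0.15 (limma, adjusted p = 0.0217). The list median was -0.07. Fibroblast (15), cardiomyocyte (15) and resident macrophage (15) markers had 0 called members and medians of -0.01, 0.25 and 0.23. Neutrophil markers had a median of 0.94 with 0 of 14 called. S100a9, encoding an abundant protein of neutrophils, stood at 5.24 and 3.76 in aPC hearts, against 2.72, 2.82 and 3.72 in sham hearts, a difference of 1.41 ± 0.52 (limma, adjusted p = 0.225). The aPC libraries were again unequal, with aPC-791 the higher, and the neutrophil sum was 208 CPM in aPC-792 and 531 CPM in aPC-791, against between 167 and 198 CPM in sham hearts.

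The 12 largest falls included matrix, receptor and channel genes. Hmcn2, a hemicentin of the extracellular matrix, stood at 4.59 and 5.01 in aPC hearts, against 7.03, 6.62 and 6.91 in sham hearts, and fell by 2.05 ± 0.25 on the log2 scale (limma, adjusted p = 0.00793). Col11a2, a fibrillar collagen chain, stood at 1.33 and 1.31 in aPC hearts, against 3.73, 3.36 and 3.56 in sham hearts, and fell by 2.23 ± 0.25 (limma, adjusted p = 0.00558). Col7a1, the collagen of anchoring fibrils, fell by 2.28 ± 0.35 (limma, adjusted p = 0.0198). Tnfrsf25, the death receptor DR3, stood at 0.01 and 0.77 in aPC hearts, against 3.10, 2.65 and 2.91 in sham hearts, and fell by 2.50 ± 0.44 (limma, adjusted p = 0.0287). Tnfrsf25 was also low in untreated and dabigatran hearts, at -2.45 and -1.96 against sham (limma, adjusted p = 0.0117 and 0.015). Muc6, a gel-forming mucin, fell by 2.34 ± 0.38, Vsig2 by 2.18 ± 0.27, the sodium-activated potassium channel Kcnt1 by 2.19 ± 0.39, the olfactory receptor gene Olfr78 by 2.29 ± 0.34, Cmtm5 by 2.32 ± 0.30, the exonuclease gene Pnldc1 by 2.18 ± 0.30 and Sspo, encoding SCO-spondin, by 2.13 ± 0.39. Each of these 7 passed (limma, adjusted p from 0.00793 to 0.0346) and passed again with the length curve subtracted.

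Long noncoding RNAs kept in the nucleus had a median of -1.27 over 7 tested members (-1.18 with the length curve subtracted). Mhrt, a heart muscle transcript on the strand opposite Myh7, stood at 3.78 and 3.65 in aPC hearts, against 5.71, 5.72 and 5.88 in sham hearts, and fell by 2.06 ± 0.22 (limma, adjusted p = 0.00558). Mhrt was also lower in dabigatran than in sham hearts, at -1.63 (limma, adjusted p = 0.00167). In untreated and rivaroxaban hearts it stood at -0.46 and -0.92 and did not pass. Myh7 itself, the slow myosin heavy chain, differed by -0.64 ± 0.30 (limma, adjusted p = 0.32), and since the strand setting of the counting is not given in the sources used here, reads of the pair cannot be told apart. Meg3 had a difference of -1.76 ± 0.42 (limma, adjusted p = 0.0824). Mhrt was the 1 member of 7 that passed. In 6 of the 7 members both aPC libraries lay below all sham libraries, also with the length curve subtracted, against 23.3% and 22.0% of all tested genes.

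Splicing factors and RNA-binding proteins fell in 3 of 33 tested members and rose in 0, against 1.05% and 0.126% of all tested genes. The median was -0.34 (-0.25 with the length curve subtracted). Srrm2, a large protein of the spliceosome, stood at 7.63 and 7.69 in aPC hearts, against 8.55, 8.45 and 8.88 in sham hearts, and fell by 0.96 ± 0.15 (limma, adjusted p = 0.0221). Pnisr fell by 0.89 ± 0.17 and Tra2a by 0.69 ± 0.14 (limma, adjusted p = 0.0369 and 0.0462). In 23 of the 33 both aPC libraries lay below all sham libraries, against 23.3% of all tested genes, and in 19 with the length curve subtracted, against 22.0%. The members are long, with a median of 7278 bases of exon, and Tra2a did not pass with the length curve subtracted (adjusted p = 0.0782).

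Genes of mitochondria had small, uniform differences upwards, of which none passed. All 73 nuclear-encoded subunits of the respiratory chain had a positive fold change, between 0.08 and 0.48, with a median of 0.33. In 68 of them both aPC libraries lay above all sham libraries, against 24.0% of all tested genes. These genes are short, with a median of 1718 bases of exon. With the length curve subtracted the median was 0.20 and the count 59 of 73, against 24.6% of all tested genes under the same subtraction. Ndufs1, a subunit of complex I that is long, stood at 8.72 and 8.69 in aPC hearts, against 8.18, 8.30 and 8.39 in sham hearts, a difference of 0.41 ± 0.12 (limma, adjusted p = 0.125) that was 0.51 with the length curve subtracted. Tricarboxylic acid cycle genes had a median of 0.34 (0.33 with the length curve subtracted), and aPC libraries lay above all sham libraries in 19 of 20. Idh2, the mitochondrial isocitrate dehydrogenase, differed by 0.47 ± 0.13 (limma, adjusted p = 0.118).

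Other metabolic and housekeeping lists had medians of the same sign, with 0 members called. Fatty acid uptake and oxidation genes had a median of 0.35 with both aPC libraries above all sham libraries in 19 of 27 members, against 24.0% of all tested genes. Echs1, an enzyme of beta oxidation, differed by 0.53 ± 0.13 (limma, adjusted p = 0.0914), while the fatty acid transporter Slc27a1 stood at -0.48 ± 0.14 (limma, adjusted p = 0.135). Mitochondrial ribosomal proteins had a median of 0.27 with 52 of 72 above, cytosolic ribosomal proteins one of 0.32 with 51 of 75 above, and proteasome subunits one of 0.26 with 34 of 41 above. With the length curve subtracted the medians of these last 3 lists were 0.17, 0.22 and 0.22, and 42 of 72, 48 of 75 and 27 of 41 members lay above, against 24.6% of all tested genes. For fatty acid genes the count was then 20 of 27. Under the scalings tried, the lowest medians of these 6 lists lay between 0.14 and 0.20, all above 0.

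**Figure D5:**
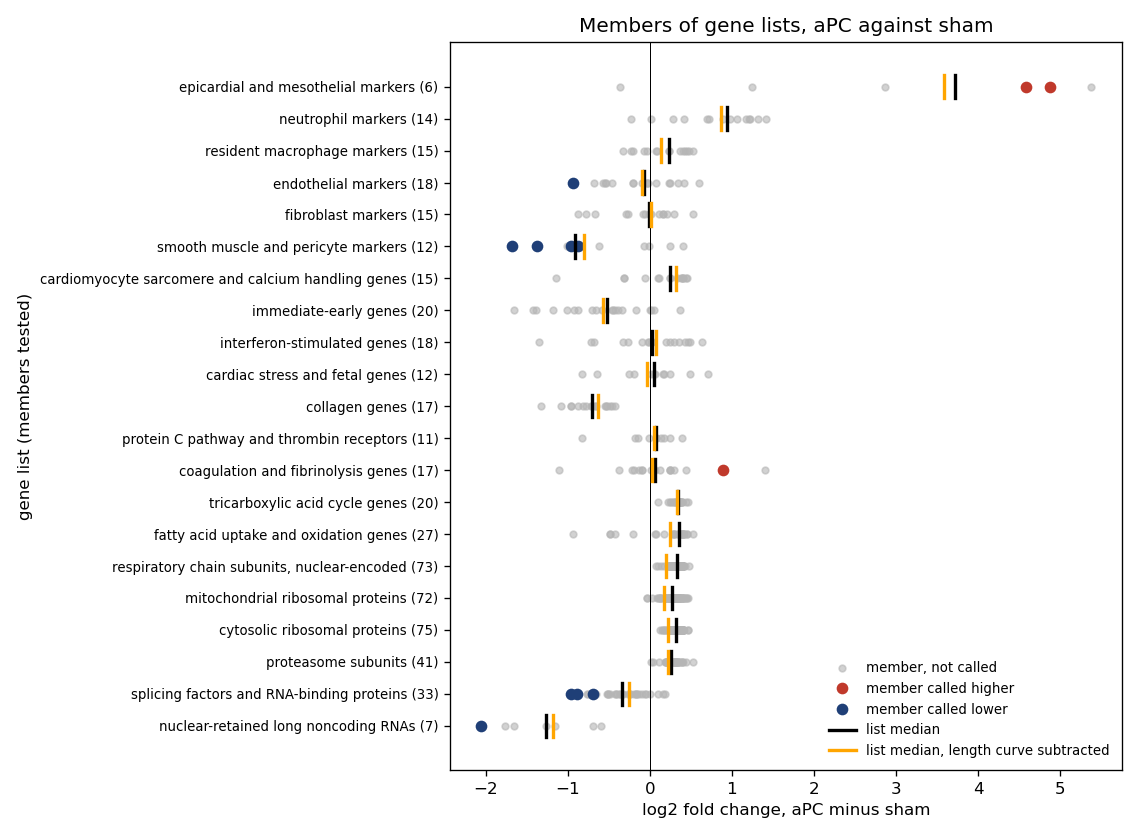
Log2 fold change of aPC against sham (horizontal axis) for each tested member of 21 gene lists (rows, with the number tested), where red and dark blue points passed, grey points did not, black bars are list medians and orange bars list medians with the length curve subtracted. Mesothelial members lie far to the right, smooth muscle and nuclear noncoding members to the left, and mitochondrial and ribosomal members in a narrow band right of 0.

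The receptors and partners of protein C did not pass. Of 11 tested members of the protein C pathway and the thrombin receptors 0 passed, with a median of 0.07. Procr, the endothelial protein C receptor, stood at 1.70 and 0.46 in aPC hearts, against 1.03, 0.93 and 0.78 in sham hearts, a difference of 0.17 ± 0.36 (limma, adjusted p = 0.855). Thbd, thrombomodulin, stood at 6.56 and 6.58 in aPC hearts, against 6.70, 6.52 and 6.90 in sham hearts. F2r, the first thrombin receptor PAR1, differed by 0.07 ± 0.18 and F2rl1, the receptor PAR2, by -0.83 ± 0.40 (limma, adjusted p = 0.871 and 0.322). The groups overlapped in Procr, Thbd and F2r.

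Injury and inflammation genes did not pass either. None of 20 immediate-early genes, 18 nuclear factor kappa B targets, 15 chemokines, 18 interferon-stimulated genes, 12 cardiac stress genes or 17 listed collagen genes passed. The collagen genes Col7a1 and Col11a2, described above, and Col20a1, at -1.72 (limma, adjusted p = 0.0249), fell and are not on that list. Nppb, the B-type natriuretic peptide, stood at 7.69 and 7.91 in aPC hearts, against 6.58, 8.34 and 7.98 in sham hearts, and Ankrd1, a stress gene of heart muscle, at 11.58 and 11.39, against 11.27, 11.73 and 11.41 in sham hearts. Both overlapped between groups. Il6 differed by 0.64 ± 0.69, Il1b by 0.37 ± 0.41 and Tnf by 0.58 ± 0.51 (limma, adjusted p from 0.605 to 0.683). Immediate-early genes had a median of -0.52, with both aPC libraries below all sham libraries in 11 of 20. Egr2, a zinc finger factor of this class, differed by -1.42 ± 0.37 (limma, adjusted p = 0.0986). The listed collagen genes had a median of -0.71 with 12 of 17 below, against 23.3% of all tested genes. With the length curve subtracted the counts below were 11 immediate-early and 7 collagen genes, against 22.0% of all tested genes.

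The same aPC libraries set against the mean of the other operated groups differed in 1747 genes, or 12.9%, of which 765 were higher (5.65%) and 982 lower (7.25%) by limma. This split depends on scaling: 1153 were higher and 812 lower after median centring, and 323 higher and 1596 lower when Gm42418 was taken out of the totals. The technical features apply here too. Gm42418 made up between 0.997% and 2.09% of reads in the other operated libraries. Across genes, the Spearman correlation of this difference with exon length was -0.21. With the length curve subtracted 646 were higher and 917 lower. The comparison with sham shares the aPC libraries with this one, so the values stand side by side. Krt8 stood 3.92 above the mean of the other operated groups and Dmkn 3.65 above it. Dmkn was also higher in dabigatran than in sham hearts, by 2.77 (limma, adjusted p = 0.00765). Immediate-early genes were lower in 13 of 20 members, with Egr2 at -1.69 and Nr4a1, an orphan nuclear receptor, at -1.32. Plaur, the urokinase receptor, stood at -1.69 (limma, adjusted p = 0.0115). Higher were 10 of 15 resident macrophage markers, with Cbr2 at 1.78 and C1qc at 0.89, 48 of 73 respiratory chain subunits and 17 of 20 tricarboxylic acid cycle genes. These list counts were made without subtracting the length curve, and the respiratory chain genes are short. The count was 4111 and 3147 without untreated replicates 17 and 19, 86 and 32 without aPC-791 and aPC-792, 772 with Riva-313 left out, 682 with Riva-319 left out, and 1099 without Sham_003.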

How the data were processed

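Per the labels, strand-marking libraries were prepared after mRNA purification, starting with 500 ng of total RNA. The authors deposited log2 CPM normalized with the trimmed mean of M values (TMM), and the submitters' processing notes name bcl2fastq, FastQC, Trim Galore, STAR and edgeR with build mm10; the counter, annotation and strand setting are not stated there. The table held 11 of 15 labelled libraries, and 4 were not analysed here. From these log2 values, 100% of the values checked came back as whole reads within 0.05 of a read, and an offset near 2 reads precedes the log, so fold changes near 3 reads are understated.

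Genes at 0 or more in at least 3 libraries (13541 of 16658) were tested with limma-trend, two-sided, in 1 fit of 5 group means (R 4.3.3, limma 3.58.1, statmod 1.5.0). limma gave every adjusted p, over all tested genes. Positions and exon lengths came from GENCODE M21 (16654 genes matched). Length and GC curves were lowess fits per library with a span of 0.3. The procedure was tested on simulated data. No replicate number is shared between groups, and no batch is labelled.

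Named genes are the 12 largest rises and 12 largest falls among called genes with the aPC and sham libraries fully apart, a higher group mean of at least 1 and predicted genes left out, up to 4 called members of each list (or the 2 with the smallest p), and chosen genes of coagulation, inflammation and cardiac stress; other genes were chosen after their values were seen. The lists and this comparison were chosen with earlier results of these data known. Alternatives were filters, scalings, a pseudocount of 1 CPM, voom on recovered reads, library weights, curve subtraction and leaving out each library.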

Additional observations from a re-analysis of the deposited data

Results flagged for a closer look

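Of 78 tested genes named in the text, the aPC response of 56 differed from the mean response of the untreated, rivaroxaban and dabigatran groups, against 12.9% of all 13541 tested genes. Many of these genes were named because the same aPC libraries were extreme against sham hearts, so nothing is read from that share. The test is limma's, on the difference between the aPC fold change against sham and the mean fold change of the other 3 groups against sham, with an adjusted p under 0.05 over all tested genes. Sham levels drop out of that difference, so each value is the log2 level in aPC hearts minus the mean of the other operated groups. In 21 genes it was positive and in 35 negative.

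The largest positive differences were Msln at 4.38, Krt19 at 4.23, Krt8 at 3.92, Dmkn at 3.65, Sprr2a2 at 3.25, Nlrp4e at 2.62 and Gnb1l at 2.43. After them came Krt18 at 2.43, Gm42418 at 2.41, Cbr2 at 1.78, Wdr17 at 1.68, Gpm6a at 1.59, Selenbp2 at 1.04 and C1qc at 0.89. The smallest positive ones were Acy3 at 0.86, Ide at 0.80, Echs1 at 0.63, Gstm2 at 0.60, Ndufs1 at 0.54, Tfpi at 0.53 and Idh2 at 0.40. A difference from the mean need not hold for each group. Sprr2a2 stood at 2.30 and 1.33 in dabigatran hearts, which overlapped the 2.84 and 2.11 of aPC hearts. Sprr2a2 and Dmkn were also higher in dabigatran than in sham hearts, by 1.45 and 2.77 (limma, adjusted p = 0.0356 and 0.00765).

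The most negative differences were Kcnt1 at -2.49, Gm26917 at -2.39, Muc6 at -2.39, Vsig2 at -2.37, Cmtm5 at -2.04, Pnldc1 at -1.99 and Col7a1 at -1.94. Next in size came Olfr78 at -1.72, Plaur at -1.69, Egr2 at -1.69, Sspo at -1.53, Col20a1 at -1.47, Meg3 at -1.42 and Notch1 at -1.32. Closer to 0 stood Nr4a1 at -1.32, Myh11 at -1.17, Hspg2 at -1.14, Srrm2 at -1.12, Mhrt at -1.06, Notch3 at -1.04 and Lama5 at -1.02. Still closer stood Hmcn2 at -0.95, Cspg4 at -0.95, Agrn at -0.94, Col11a2 at -0.92, Pnisr at -0.87, Tra2a at -0.87 and Col4a1 at -0.87. The smallest in size were Jag1 at -0.86, Tnxb at -0.80, Pdgfrb at -0.73, Dtx3 at -0.69, Egfl7 at -0.64, Mylk at -0.61 and Slc27a1 at -0.52.

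Among these genes, some with no call against sham differed from the other operated groups: Plaur stood 2.69 above sham in untreated and 3.12 above it in dabigatran hearts, and Cbr2 at -2.16 in untreated hearts. The untreated libraries lay far apart from each other, with an SD of the log2 difference of 0.792.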

How the results depend on the processing

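No paired analysis was possible because no replicate number is shared between groups. For aPC against sham (159 genes), 80 were called with voom on recovered reads, 83 with length and GC curves subtracted, 308 with Gm42418 taken out of the totals, 813 in a fit of the aPC and sham libraries alone and 1784 with library weights. Leaving out 1 library gave between 1 and 779, and leaving out both untreated libraries, an alternative added after seeing the data, gave 778. The range is set by the same libraries as in the report. For aPC against the other operated groups (1747 genes), library weights gave 2691 and leaving out 1 library between 32 and 4111. The remaining alternatives stayed within 1.5 times the main count. Of 34 genes that the naming rule took as called, 33 were called without the filter, 30 with the length curve subtracted, 26 with length and GC curves and 26 under voom. Without aPC-791 and aPC-792 1 and 2 were called, and without Sham_003, Sham_006 and Sham_007 10, 8 and 4. None of the 34 reversed under any alternative run, while 15 of the 103 named genes that had not passed changed sign under at least 1. When 1 aPC library is left out, the remaining one is assumed to vary like the other groups. The mesothelial list had 0 called members under the stricter filter, which removes most of its genes, and 5 with a pseudocount of 1 CPM. Depth limits the low genes: 3 reads lie between -2.41 and -2.70 log2 CPM in the aPC and sham libraries, and intervals cover counting error and the spread of few libraries only.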

Other observations

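Genes of Notch signalling, through which neighbouring cells of vessel walls instruct each other, were lower in part in aPC hearts. The list was made after the values were seen and has no test of its own. Of 18 tested members 4 fell and 0 rose by limma over all genes, against 1.05% and 0.126% of all tested genes. Because members were picked with their values known, nothing is read from that count. The median was -0.67 (-0.45 with length and GC curves subtracted). Notch1, a receptor of endothelium, stood at 5.10 and 5.26 in aPC hearts, against 6.27, 6.14 and 6.71 in sham hearts, and fell by 1.20 on the log2 scale (limma, adjusted p = 0.0249). The ligand Jag1 fell by 0.98 (limma, adjusted p = 0.0361) and Dtx3, a relative of the Notch regulator deltex, by 1.00 (limma, adjusted p = 0.0249), and the fourth is Notch3. The target genes Hey2 and Hes1 stood at 0.30 and -0.69 and did not pass.

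Basement membrane and related matrix genes, a list likewise made after the values were seen, fell in 4 of 25 tested members, against 1.05% of all tested genes. Nothing is read from that count either. The median was -0.46 (-0.31 with length and GC curves subtracted). Hspg2, the proteoglycan perlecan, stood at 8.40 and 8.79 in aPC hearts, against 9.91, 9.90 and 10.08 in sham hearts, and fell by 1.37 (limma, adjusted p = 0.019). The laminin chain Lama5 fell by 1.26 and agrin (Agrn) by 1.24 (limma, adjusted p = 0.0361 and 0.0311). The remaining call, tenascin X (Tnxb), is a protein of connective tissue matrix rather than of the basement membrane itself. It fell by 1.52 (limma, adjusted p = 0.0249). With length and GC curves subtracted Hspg2 and Tnxb still passed, while Lama5 and Agrn did not (limma, adjusted p = 0.0899 and 0.0707). Lama5, Agrn and Tnxb were also lower in dabigatran than in sham hearts, at -0.94, -0.79 and -1.19. These passed (limma, adjusted p = 0.0241, 0.0335 and 0.013), and Hspg2 did not pass there. The type IV collagen chain Col4a1 stood at -0.52 and did not pass.

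Among epithelial genes picked after their values were seen, Krt7 had 107 and 58 reads in aPC hearts, against 4, 9 and 4 in sham hearts. Krt14, a keratin of stratified epithelia, had 63 and 14 reads in aPC hearts, against 0 in each sham library. Cdh1, the epithelial cadherin, had 14 and 3 reads in aPC hearts, against 18, 15 and 22 in sham hearts.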
